A study of Mus musculus with 2 samples.

Results

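Glycolysis, glycogen metabolism and the entry of pyruvate into the mitochondrion were described in the mouse heart through 39 genes, taken from the 55536 annotated genes as a list of symbols that uses no measured value as a threshold, though earlier results of these data were known when it was drawn up. They cover the transport of glucose and lactate, every step from hexokinase to lactate dehydrogenase, the enzymes that set phosphofructokinase activity, the pyruvate dehydrogenase complex with its kinases and a phosphatase, and the making and breakdown of glycogen. Total RNA was sequenced from the whole heart of 2 female mice of strain B6CASTF1/J at postnatal day 10, with 1 library per animal and 300 ng of RNA each. This strain is the first-generation cross of the laboratory strain C57BL/6J with the wild-derived strain CAST/EiJ. The hearts form 1 group, numbered as biological replicates 1 and 2 but sharing a donor record, with synthetic spike-in RNAs in a profile for stranded, ribosome-reduced libraries. No treatment, litter or batch is named, so genes were compared within each heart and the hearts with each other.

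Glycolysis splits glucose into pyruvate in the cytosol with a small yield of ATP. Pyruvate is then either reduced to lactate or taken into mitochondria, where the pyruvate dehydrogenase complex turns it into acetyl-CoA. The mouse heart draws much of its ATP from glycolysis before birth and moves towards fatty acid oxidation in the weeks after it, and phosphorylation of the pyruvate dehydrogenase complex is a known control point of that choice.

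Replicate 1 held 40403041 and replicate 2 held 39849597 expected counts. Levels are RSEM TPM, a relative abundance corrected for transcript length, given for replicate 1 and then replicate 2 or as mean ± SD (n = 2). With 2 libraries no exact two-sided p can fall below 0.5, so no p is given. The spread is that between the 2 libraries, in which differences between animals and between preparations cannot be told apart. The tissue label fitted the markers: all 6 heart muscle markers were detected, with a summed level of 29580 and 31250 TPM, while 1 of 8 skeletal muscle markers was (Acta1, which heart muscle also makes). In bulk tissue, fewer cells of a type and less RNA per cell cannot be told apart.

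The pathway was present almost whole. Of the 39 genes, 37 reached 1 TPM in both hearts, against 53.2% of 22015 nuclear protein-coding genes. The other 2 were Pfkfb4, at 0.98 TPM in each heart, and Aldoc, at 0.43 and 0.53 TPM. Levels ran over more than 3 orders of magnitude in both hearts, with 7 genes under 10 TPM, 14 at 10 to under 100 TPM and 18 at 100 TPM or more. The median gene stood at 75.0 TPM (Hk1), against a median of 10.9 TPM over the 11718 detected protein-coding genes, and 23 members lay among the highest 10% of those, which began at 57.0 TPM. Together the members held 1.07% and 1.15% of all gene counts.

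**Figure D1:**
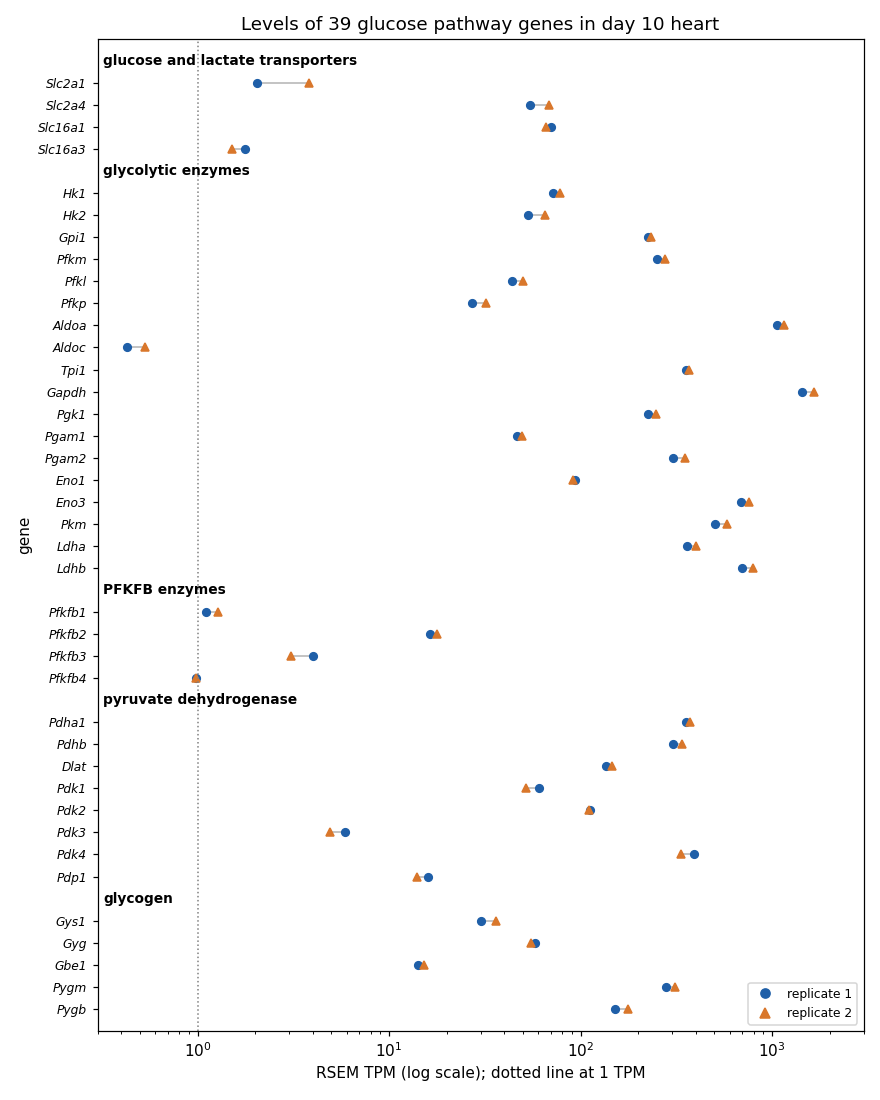
RSEM TPM of the 39 genes on a log axis, grouped by role, with a circle for replicate 1, a triangle for replicate 2 and a dotted line at 1 TPM. Gapdh and Aldoa lie highest, at means of 1547 and 1111 TPM, while Aldoc and Pfkfb4 lie under 1 TPM.

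Most steps can be carried out by several forms of an enzyme, and for pyruvate kinase the forms come from 1 gene. Pkm (mm10, chromosome 9, 59656368 to 59679375, plus strand) encodes pyruvate kinase, which makes pyruvate and ATP in the last step of glycolysis. Its transcripts hold either of a pair of mutually exclusive coding exons: the M1 exon, typical of adult muscle and brain, or the M2 exon, typical of embryonic and proliferating cells. The exons are shown because they are the sequence on which the split between the forms rests. The letters are those of the GENCODE M21 transcripts, 5′ to 3′ on the coding strand, with capitals where the exons differ when laid side by side.

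Pkm M1 exon, transcript Pkm-202, chr9:59675029-59675195: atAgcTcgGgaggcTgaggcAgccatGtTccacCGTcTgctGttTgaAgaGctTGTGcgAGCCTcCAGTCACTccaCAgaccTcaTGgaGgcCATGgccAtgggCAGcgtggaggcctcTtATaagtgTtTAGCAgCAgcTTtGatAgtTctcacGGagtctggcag
Pkm M2 exon, transcript Pkm-201, chr9:59675568-59675734: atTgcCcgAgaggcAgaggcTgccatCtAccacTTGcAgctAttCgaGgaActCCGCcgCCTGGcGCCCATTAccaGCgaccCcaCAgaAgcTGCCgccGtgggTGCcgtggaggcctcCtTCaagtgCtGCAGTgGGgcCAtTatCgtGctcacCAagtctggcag

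Each exon has 167 bases, of which 64 differ, so that 61.7% are identical. The encoded proteins both have 531 residues and differ at 22 of them. The whole gene stood at 505 and 580 TPM (543 ± 53.3). By RSEM the M1 transcript Pkm-202 held 251 and 292 TPM, and the M2 transcript Pkm-201 held 241 and 279 TPM. The hearts thus carried the forms in nearly equal parts, with M1 at 51.0% and 51.2% of the pair. By kallisto, which estimates transcripts without alignment, M1 stood at 282 and 325 TPM and M2 at 319 and 368 TPM, or 47.0% and 46.9% of the pair as M1. The animals differed by far less than the methods did, and which form led depended on the method. The transcripts also differ at their ends, with 2041 bases for M1 and 2432 for M2, so these estimates do not rest on the exon alone.

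Other Pkm transcripts were minor. Pkm-206, a short coding transcript, stood at 0.73 and 0.57 TPM by RSEM but 41.7 and 30.8 TPM by kallisto. The M1 exon is also part of the retained-intron transcript Pkm-203, which held 4.38 and 2.65 TPM by RSEM. Transcripts Pkm-204, Pkm-205, Pkm-207 and Pkm-209 each stayed under 4 TPM in both hearts by both methods. Pkm held 33222 and 37657 expected counts in all, against 472 and 401 for Gm49759, a locus annotated as not yet experimentally established that overlaps it on the same strand.

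Hexokinase commits glucose to the cell by phosphorylating it. Hk1 (chromosome 10, 62268855 to 62379908, minus strand) has several first exons, and a known function separates them, since a hydrophobic start lets the common form bind the outer mitochondrial membrane. The coding bases that precede the shared part of the protein are shown for the 3 coding transcripts that held at least 10% of the gene's TPM by either method, from the GENCODE M21 transcripts on mm10, with the start codon in capitals. The start of Hk1-202 encodes the mitochondria-binding form, while Hk1-205 and Hk1-201 begin differently.

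Hk1-202 coding start, chr10:62340013-62340075, minus strand: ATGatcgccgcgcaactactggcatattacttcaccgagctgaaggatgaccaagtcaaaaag
Hk1-205 coding start, chr10:62342501-62342560, minus strand: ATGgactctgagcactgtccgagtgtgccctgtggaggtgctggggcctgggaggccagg
Hk1-201 coding start, 2 exons within chr10:62353058-62358362, minus strand: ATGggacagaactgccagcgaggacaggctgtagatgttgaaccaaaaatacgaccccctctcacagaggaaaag

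Of the first 15 encoded residues, 11 are hydrophobic in Hk1-202, against 3 in Hk1-205 and 4 in Hk1-201. The encoded proteins have 918 residues for Hk1-202, 917 for Hk1-205 and 945 for Hk1-201. By RSEM the mitochondria-binding Hk1-202 led with 55.8% and 59.2% of the gene's TPM, ahead of Hk1-201 with 24.1% and 20.3% and Hk1-205 with 17.7% and 19.0%. By kallisto Hk1-205 led with 39.7% and 40.6%, Hk1-201 held 34.9% and 36.4%, and Hk1-202 was the lowest of the 3 with 22.4% and 21.7%. The hearts gave the same order within each method, and the 2 methods differed in which transcript led.

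Glucose enters heart muscle through the insulin-responsive carrier Slc2a4 and the constitutive carrier Slc2a1. Slc2a4 stood at 54.3 and 68.2 TPM, and Slc2a1 at 2.05 and 3.83 TPM. The insulin-responsive carrier held 95.5% ± 1.19 of the TPM of the pair. Of the monocarboxylate carriers, Slc16a1, which moves lactate in either direction and serves lactate uptake in oxidative tissue, stood at 69.9 and 65.7 TPM. Slc16a3, the carrier of lactate-exporting glycolytic cells, stood at 1.76 and 1.51 TPM, so that Slc16a1 was 39.2-fold higher.

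Hk2, the insulin-regulated hexokinase of muscle, stood at 53.0 and 65.5 TPM, and Hk1 at 71.6 and 78.4 TPM. Hk2 was lower in both hearts, by a log2 ratio of -0.35 ± 0.12 (TPM + 0.1). Pairs were called apart when both hearts had the same sign and the mean ratio exceeded 3 SD, which this pair did not reach, although it did by kallisto at -0.81 ± 0.15. The 594-base processed transcript Hk2-202 held 30.0% and 28.1% of Hk2 TPM by RSEM, and 3.27% and 2.33% by kallisto. The coding transcript Hk2-201 alone stood at 36.7 and 46.7 TPM by RSEM. The part of Hk2-202 in the difference between methods was not tested. Gpi1, the single isomerase that follows, stood at 226 and 234 TPM.

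Phosphofructokinase makes the committed step of glycolysis as a tetramer of muscle, liver or platelet subunits. The muscle subunit Pfkm stood at 252 and 277 TPM, the liver subunit Pfkl at 43.6 and 50.3 TPM, and the platelet subunit Pfkp at 27.1 and 32.2 TPM. Pfkm held 77.6% ± 0.71 of the sum, and both of its ratios were apart, at 5.63-fold over Pfkl and 8.90-fold over Pfkp. The PFKFB enzymes make and remove the fructose bisphosphate that activates phosphofructokinase. Pfkfb2, the heart form, stood at 16.3 and 17.8 TPM and made up 74.9% ± 2.83 of the 4. Pfkfb3, known from proliferating and hypoxic cells, stood at 3.98 and 3.08 TPM, and Pfkfb1, the liver and muscle form, at 1.10 and 1.27 TPM. Pfkfb2 was 4.76-fold above Pfkfb3, 13.4-fold above Pfkfb1 and 15.9-fold above Pfkfb4, and all 3 pairs were apart.

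The next 4 steps differed widely in level, with aldolase and Gapdh far above Tpi1 and Pgk1. Aldolase splits the 6-carbon sugar, and its muscle form Aldoa stood at 1064 and 1158 TPM, against 0.43 and 0.53 TPM for the brain form Aldoc, which had 22 expected counts in each heart. A second gene entry also named Aldoa had 9 and 11 counts and was left apart. Tpi1, which interconverts the triose products, stood at 354 and 368 TPM. Gapdh, which oxidises the triose and makes NADH, was the highest member at 1435 and 1658 TPM, and Pgk1, which makes the first ATP of the pathway, stood at 225 and 248 TPM. Pgk1 has 4 annotated pseudogenes of at least 90% identity over 200 bases, which held 7.92% and 7.39% of the summed counts by RSEM and 0.015% and 0.007% by kallisto.

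Phosphoglycerate mutase and enolase, the steps between them and pyruvate kinase, each have a muscle form and a widespread form. Pgam2 stood at 305 and 349 TPM, against 46.7 and 49.7 TPM for Pgam1. Eno3 stood at 690 and 756 TPM, against 93.2 and 91.7 TPM for Eno1. The muscle forms held 87.1% ± 0.59 of mutase and 88.7% ± 0.77 of enolase TPM, shares close to each other and above that of Pfkm. Eno1 carried the largest pseudogene caveat of these: 6 annotated pseudogenes at the same identity held 15.5% and 15.9% of the summed counts.

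Lactate dehydrogenase is a tetramer of A and B subunits, with B the form of oxidative heart muscle. Ldhb stood at 694 and 791 TPM and Ldha at 359 and 398 TPM. Ldhb held 66.2% ± 0.42 of the pair, a tighter share than the levels themselves, as both subunits were higher in replicate 2. By kallisto Ldhb was 3.05-fold above Ldha rather than 1.96-fold. By expected counts not scaled by length, the log2 ratio was smaller, at 0.42 against 0.97 by TPM. The 437-base transcript Ldhb-202 held 39.3% and 35.1% of Ldhb TPM by kallisto, and 22.4% and 20.6% by RSEM. The size of this ratio therefore depends on the method and on the scaling by length.

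Summed over forms, the 11 steps kept the same order by both methods. The lowest was hexokinase at 134 ± 13.6 TPM, and the highest was GAPDH at 1547 ± 157 TPM, followed by lactate dehydrogenase at 1121 ± 96.7 and aldolase at 1112 ± 66.1. Enolase came next at 816 ± 45.8 TPM, then pyruvate kinase. Some neighbours overlapped between hearts: lactate dehydrogenase and aldolase, the group of mutase (375 ± 33.3), Tpi1 (361 ± 9.79) and phosphofructokinase (341 ± 26.4), and Pgk1 (236 ± 16.4) and Gpi1 (230 ± 5.42). The first place of GAPDH depends on the scaling by length. RSEM used an effective length of 606 and 610 bases for Gapdh, against 1403 and 1392 for Aldoa. By RSEM counts Gapdh, with 27215 and 31025, lay under Aldoa, with 46771 and 49491. By kallisto counts they were closer, at 46536 and 53181 against 46897 and 49482.

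The pyruvate dehydrogenase complex and the kinases that switch it off were both abundant, at summed levels of 827 ± 41.5 TPM for 3 subunits and 535 ± 46.5 TPM for 4 kinases. Pdha1, the alpha subunit on which the kinases act, stood at 357 and 372 TPM, Pdhb, its beta partner, at 305 and 338 TPM, and Dlat, the acetyltransferase core, at 136 and 146 TPM. Pdha1 and Pdhb, which assemble in equal numbers, were not apart at a log2 ratio of 0.18 ± 0.062, and by kallisto the ratio had the other sign at -0.19 ± 0.064. Dlat was 1.60-fold higher by kallisto than by RSEM when both were scaled to the coding genes. Within it, the retained-intron transcript Dlat-206 held 1.79% and 0.97% of the TPM by RSEM and 28.5% and 28.0% by kallisto.

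Among the kinases, Pdk4, which is known to be induced by fasting and fatty acids, stood at 389 and 335 TPM (chromosome 6, 5483351 to 5496309, minus strand). Pdk2, the widespread form, stood at 112 and 110 TPM, Pdk1, known as hypoxia-induced, at 60.3 and 51.8 TPM, and Pdk3 at 5.86 and 4.94 TPM. Pdk4 alone made up 68.6% and 66.8% of kinase TPM by RSEM, and 64.5% and 58.0% by kallisto. Its levels, summed over all transcripts, lay on both sides of those of Pdha1. The retained-intron transcript Pdk4-202 held 21.7% and 26.6% of Pdk4 by RSEM, and 7.72% and 3.10% by kallisto. Retained-intron transcripts of Pdha1 held 5.10% and 10.6% by RSEM, and 1.52% and 2.41% by kallisto. Pdk4 was 3.25-fold above Pdk2, 6.45-fold above Pdk1 and 65.9-fold above Pdk3, and Pdk2 was 1.99-fold above Pdk1. All 4 pairs were apart. The phosphatase Pdp1, which reverses the kinases, stood at 15.9 and 13.9 TPM. The 4 kinases summed to 568 and 502 TPM, against 18.8 and 18.0 TPM for Pdp1 with its relative Pdp2, a ratio of 30.3 and 27.9. These are levels of RNA and say nothing of how much of the complex was phosphorylated.

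Glycogen stores glucose in heart muscle. The branching enzyme Gbe1 stood at 14.1 and 15.3 TPM, the synthase Gys1 at 30.1 and 36.0 TPM, and Gyg (glycogenin, which primes the chain) at 57.8 and 55.4 TPM. Gbe1 was apart from Gyg and lower, at a log2 ratio of -1.94 ± 0.13. The phosphorylases, which release glucose phosphate, were higher: the muscle form Pygm stood at 280 and 309 TPM and the brain form Pygb at 151 and 176 TPM. Pygm held 64.3% ± 0.91 of the pair, and the phosphorylases summed to 458 ± 39.1 TPM, against 104 ± 3.31 TPM for the 3 synthesis genes.

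In all, 18 of the 20 pairs were apart, 17 with the first-named gene higher and 1 with it lower, and 19 had the same sign by both methods. How many other gene pairs would pass this rule was not computed. The pairs were also chosen with earlier results of these data known, so these counts describe the listed pairs only. The 12 isozyme pairs compared by sequence were 58.1% to 77.4% identical over their coding bases, and the longest run of bases shared without a difference was 12 to 62, longest in Pygm with Pygb. Some members also overlap a gene on the opposite strand, by whole gene span with introns included. Pfkp had 2538 and 2812 expected counts against 1866 and 1785 for the overlapping Pitrm1, and Pfkm had 18595 and 20414 against 952 and 880 for Senp1. The posterior SD that RSEM gives for the count was 0 in both hearts for Pfkp, and 0 and 0.48 for Pfkm.

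**Figure D2:**
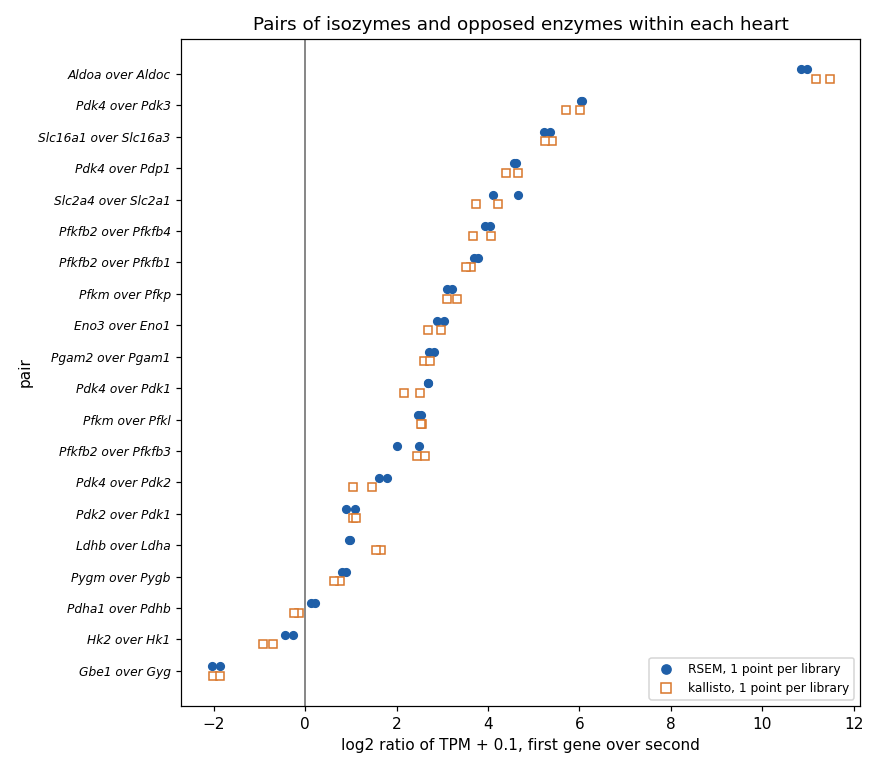
Log2 ratio of TPM + 0.1 for the 20 pairs, first-named gene over second, with a filled circle per library for RSEM and an open square per library for kallisto. Of these, 18 are apart by RSEM, and by that method Hk2 over Hk1 and Pdha1 over Pdhb lie nearest to 0.

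At the level of transcripts, the methods or the hearts differed for some members in which one led. For 26 of the 37 detected members, the leading transcript was the same in both hearts by both methods. That is close to the share over 11713 detected protein-coding genes, 71.2%. The exceptions among the members were Hk1, Gapdh, Eno3, Pkm, Ldha, Ldhb, Slc2a1, Pfkfb1, Pdp1, Gyg and Gbe1. Among them, Ldhb, Slc2a1 and Pfkfb1 changed leader between the hearts by kallisto, and Pdp1 did so by RSEM. In Ldha, RSEM gave Ldha-202 98.2% and 99.0% of the TPM, whereas kallisto led with Ldha-201 at 54.6% and 48.0%. In Aldoa, Aldoa-201 led throughout, with 94.95% and 94.2% by RSEM and 63.1% and 58.7% by kallisto.

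Gapdh (chromosome 6, 125161715 to 125166467, minus strand) differed most between methods. RSEM led with Gapdh-208, a 483-base processed transcript, at 71.7% and 71.3%, and kallisto gave that transcript 0 and led with Gapdh-207 at 46.5% and 51.6%. The gene had 46536 and 53181 kallisto counts, compared with 27215 and 31025 RSEM counts, and its level on the coding scale was 1.78-fold higher by kallisto. Gapdh has 170 annotated pseudogenes at the identity above, which held 6.68% and 5.64% of the summed counts in the RSEM tables and 28.0% and 28.3% in the kallisto tables, most of it in Gm7336 with 16515 and 18875 counts. Gapdh and Dlat were the only members to differ by 1.5-fold or more between methods on that scale, against 6.21% of detected protein-coding genes. Levels of Gapdh are therefore uncertain here, and the cause was not tested.

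**Figure D3:**
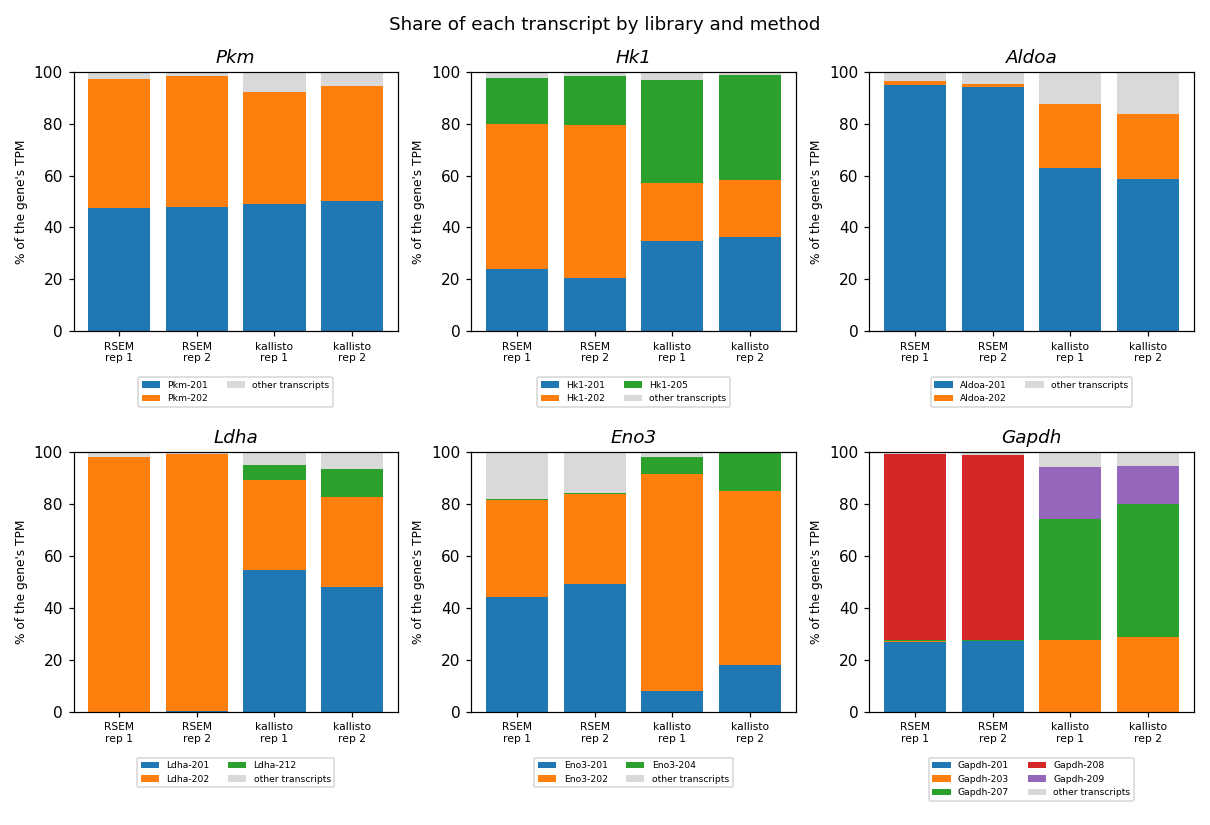
Stacked bars give each transcript's percent of its gene's TPM for 6 genes, by method and replicate, with transcripts under 10% in all 4 tables in grey. Bars of replicates mostly resemble each other within a method, least so for Eno3 by kallisto, where Eno3-202 held 83.7% and 66.8%. Hk1, Aldoa, Ldha, Eno3 and Gapdh change composition between methods.

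Between the hearts most members differed by small folds, though by more than the typical gene. Ignoring sign, the members had a median log2 ratio of 0.15, against 0.09 for detected protein-coding genes. Counts were scaled by TMM, and 1 of the 39 genes differed by 1.5-fold or more, against 8.05% of 16517 genes tested and 1.56% of detected protein-coding genes. That gene was Slc2a1 (chromosome 4, 119108711 to 119137983), with 191 and 285 expected counts, 1.53-fold higher in replicate 2 with a log2 ratio of 0.61 and an exact 95% counting interval of 0.35 to 0.89. Intervals cover counting error only and not the difference between animals. By kallisto the log2 ratio of Slc2a1 was 0.54, under the 1.5-fold line. Its RSEM composition also moved, with the leading Slc2a1-201 at 82.0% of the TPM in replicate 1 and 50.7% in replicate 2.

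Some lists of cell type markers also differed between the hearts, and not all in the same direction. All 8 red cell markers were 1.99- to 2.67-fold higher in replicate 2, with a summed level of 5271 and 12990 TPM. All 6 atrial markers were higher too, at 522 and 966 TPM, whereas fat cell markers were lower, at 64.8 and 10.2 TPM, with all 5 that were tested past 1.5-fold. Fibroblast, endothelial and macrophage markers had none past 1.5-fold. The part of these cells in the difference of Slc2a1 and in those below was not tested.

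The direction was uneven. Of the 39 genes, 29 were above 0 and 10 below, with a median log2 ratio of 0.14, against 0.01 and 51.9% above 0 for the detected protein-coding genes. The heart muscle markers moved with them, at a median log2 ratio of 0.13 with 5 of 6 above 0 and none past 1.5-fold, and their part in the members' shift was not tested. Counting intervals excluded 0 for 30 members, 25 above and 5 below, against 26.9% of tested genes, which reflects depth as well as difference since abundant genes have narrow intervals. After Slc2a1 came Hk2 at 0.35, Slc2a4 at 0.33 and Gys1 at 0.27. The 5 whose interval lay below 0 were Pfkfb3 (-0.40), Pdk4 (-0.24), Pdk3 (-0.24), Pdp1 (-0.17) and Slc16a1 (-0.08). All 4 kinases were below 0, with intervals that included 0 for Pdk1 and Pdk2, and the 3 subunits of the complex were above it, with an interval that included 0 for Pdha1, whose ratio was 0.01 here and -0.01 when scaled by library size alone. With 1 library per animal these are differences between 2 libraries and not of a condition.

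**Figure D4:**
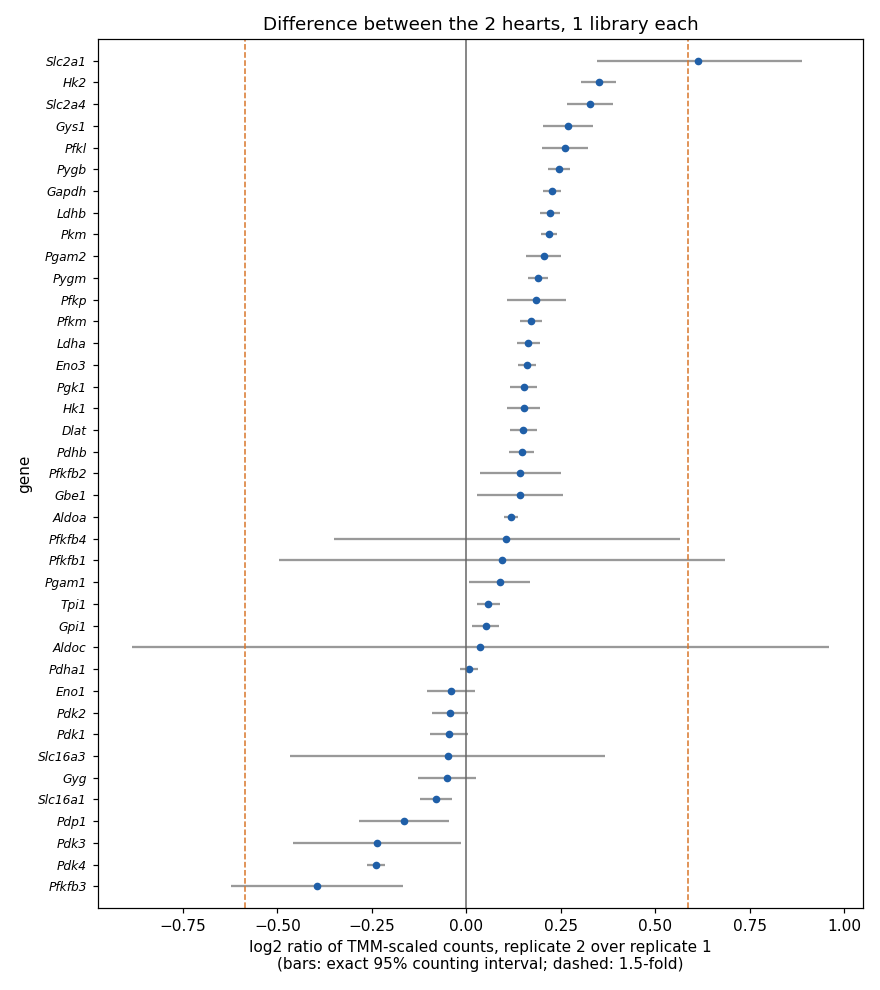
Log2 ratio of TMM-scaled counts, replicate 2 over replicate 1, for the 39 genes, with bars for the exact 95% counting interval and dashed lines at 1.5-fold. Slc2a1 alone lies past a dashed line, and 29 points lie right of 0.

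A further 51 genes of the pathways were read from a list of relatives, regulators and connecting enzymes, and 38 were detected. Bsg, the chaperone that carries the monocarboxylate carriers to the membrane, was the highest at 515 and 496 TPM. The mitochondrial pyruvate carrier is made of Mpc1, at 142 and 169 TPM, and Mpc2, at 163 and 186 TPM. Dld and Pdhx, the dehydrogenase and binding subunits of the pyruvate dehydrogenase complex, stood at 160 ± 9.08 and 58.9 ± 7.16 TPM. In glycogen metabolism, Pgm1, which interconverts glucose phosphates, stood at 93.7 ± 2.29 TPM, and Ugp2, which makes the activated sugar, at 78.2 ± 3.85 TPM. All but 1 of the 23 other glycogen genes were detected, the exception being the liver synthase Gys2 at 0.02 and 0 TPM, named after its value was seen. Gapdhs, Pgk2, Ldhc and Pdha2, known from the testis, had 0 counts in both hearts.

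Of the 41 that could be tested between hearts, 2 were at least 1.5-fold higher in replicate 2 and 0 were lower, against 3.8% and 4.25% of all tested genes. Of the higher ones, Bpgm, which makes the red cell regulator of oxygen binding, stood at 19.8 and 30.0 TPM, a 1.57-fold difference in the direction of the red cell markers above, whose part in it was not tested.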

How the data were processed

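Expected counts, TPM and percent of the gene's TPM per transcript were made by the authors in tables whose column names are those RSEM writes, and estimated counts and TPM in tables with the columns kallisto writes, per the file headers. Assembly mm10 and annotation M21 are named in the text deposited with the tables. The tools behind these tables, their versions and the use of strand in counting were not given in the sources used here. Whether strand was used to separate genes that overlap on opposite strands is therefore not known. The labels name both hearts as biological replicates 1 and 2, with 1 group and no contrast.

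All 39 symbols matched 40 gene entries. A gene was detected at 1 TPM in both libraries. The 26248 numeric entries (3.84 and 2.92 counts) and 97 spike-in and phage entries (0.541% and 0.575% of counts) were left out. Ratios between hearts used expected counts rounded to whole numbers and TMM factors from edgeR 4.0.16 (R 4.3.3), a prior count of 0.5 and genes with at least 20 summed counts; DESeq2 1.42.0 size factors were an alternative. With 1 group, the edgeR quasi-likelihood test could not be fitted. The biological coefficient of variation over 16517 genes was 9.14%. Pseudogenes were matched with blastn 2.17.0 at 90% identity over at least 200 bases. Ratio estimation was tested on simulated data. Other steps ran in Python 3.11.15 (pandas 2.3.3, numpy 2.4.6, scipy 1.17.1; figures with matplotlib 3.10.9). All members were named, and of the further genes the 8 with the highest mean TPM and any past 1.5-fold with a mean of at least 10 TPM. Some genes that this rule or the marker lists cover are not reported here. The members, pairs and lists were chosen with earlier results of these data known. Signal tracks were not used here.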

Additional observations from a re-analysis of the deposited data

How the results depend on the processing

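No paired analysis was possible because there is 1 group. The count of members past 1.5-fold between hearts was 1, and it was 0 with kallisto counts and 0 with a 2-fold cutoff, no test having been run; it was 1 with DESeq2 size factors, library size alone, a prior count of 2 or no filter on low counts. Members detected numbered 37, and 37 to 37 when either library was left out, 38 by kallisto, 39 with TPM rescaled to the nuclear protein-coding genes and 32 at a cutoff of 5 TPM. Pairs apart numbered 18 and ranged up to 19 under the alternatives, a count that a single library cannot give. By counts not scaled by length, Pdha1 over Pdhb was apart at a log2 ratio of 1.07. Members with the same leading transcript numbered 26, and 27 to 28 when either library was left out, 36 within RSEM tables, 34 within kallisto tables and 27 among coding transcripts. TPM of 36 members moved by more than the spread between hearts with kallisto on the TPM as deposited; on a scale common to the coding genes the median log2 ratio of kallisto over RSEM was -0.08 for the members, and 2 members differed by 1.5-fold or more. Other scalings moved the median of all genes between hearts by at most 0.02 on the log2 scale, and library size alone gave 28 members above 0 and 11 below. No ratio between hearts has a value with a library left out. Depth limits Aldoc, Pfkfb1 and Pfkfb4, with 22 to 85 counts.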
